A study of Mus musculus with 321 samples.

Results

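NIH3T3 fibroblasts that carried a Tcf-1 retrovirus (Tcf-1 RV) were compared between day 4 and day 2 by ATAC-seq, which marks open chromatin by where a transposase can cut it. The comparison used 4 of the series' 321 samples, the Tcf-1 RV ATAC-seq libraries. Replicates 1 and 2 come from files tagged day 2 and replicates 3 and 4 from files tagged day 4. The day stands only in the file names, and the sample labels do not give it. NIH3T3 is an established mouse fibroblast line of NIH/Swiss origin, used here at passages 8 to 12. The matching controls were 4 NIH3T3 libraries with an empty retrovirus (Empty RV), 2 per day with the same tags. For the natural lineage, open regions were taken from CD4+CD8+ double-positive (DP) thymocytes sorted from mice, 2 wild-type libraries (labelled C56BL/6 (WT)) and 2 libraries without Tcf-1 (labelled TCF-1-/- deltaVII), whose ages the labels do not give. All 8 NIH3T3 libraries share the line and the exposure to a retrovirus. They differ by the Tcf-1 insert, the day, and a second tag and a run number in the file names, described below. The sources used here do not say how transduced cells were selected or whether the replicates were separate cultures, so every p below measures only the spread between these libraries.

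Tcf-1, the product of Tcf7, is a DNA-binding protein of the TCF/LEF family with an HMG box. Family members recognise a core of the form CTTTGA, and in Wnt signalling they recruit β-catenin to target genes. In the thymus Tcf-1 is a central factor of T cell commitment and of the chromatin landscape of developing T cells, and fibroblasts do not normally rely on it. Forced expression in NIH3T3 thus asks what Tcf-1 does to chromatin outside its own lineage, and the 2 days ask which sites stay open.

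The 4 peak lists were merged where peaks shared at least 1 bp, which gave 70604 regions. A region was called day-4-only if both day 4 lists and neither day 2 list held a peak there, which was true of 3592 regions or 5.09%. A region was called day-2-only in the reverse case, which was true of 2819 regions or 3.99%. All 4 lists held 28666 regions (40.6%), and the other 35527 followed some other pattern. With single libraries left out the day-4-only count rose to 19901 (without replicate 3), and the day-2-only count rose to 7090 (without replicate 2) or 9372 (without replicate 4). Where Tcf-1 binds was taken from a pooled list of 40562 Tcf-1 ChIP-seq summits in Tcf-1 RV NIH3T3, whose file also carries a day 2 tag. Binding on day 4 was not analysed here, so a site bound only on day 4 counts as unbound in every value below. A peak list from bulk cells cannot tell fewer cells with an open site from less opening per cell.

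The lists differed in length, and this touches every count. Replicates 1 to 4 held 47623, 43527, 36583 and 62639 peaks, and the Empty RV lists of the same numbers held 22778, 34601, 46819 and 58026. Read depth is unknown, because the lists hold positions only. Of the peaks of replicate 3, 99.2% were met by a peak of replicate 4, whereas 56.2% of the peaks of replicate 4 were met by one of replicate 3. A second tag in the file names, JJ or MK, joins replicate 1 with 3 (JJ) and replicate 2 with 4 (MK). The sources used here do not explain it. Replicate 4 of both arms also carries another run number than the other libraries, so within MK the day and the run number cannot be told apart. As a check of the cell type, 10, 10, 10 and 11 of 13 fibroblast markers had a peak within 1 kb of a gene end in Tcf-1 RV replicates 1 to 4, with Col1a1, Col1a2 and Fn1 in each and neither Pdgfra nor Prrx1 in any. None of 10 T cell markers, Cd3e and Cd4 among them, had such a peak in any of the 8 libraries.

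Regions seen only on day 2 and regions seen only on day 4 differed first in Tcf-1 binding. Of the day-2-only regions, 1248 of 2819 (44.3%, 95% Wilson interval 42.4 to 46.1%) held a Tcf-1 summit, against 540 of 3592 day-4-only regions (15%, 13.9 to 16.2%). The share was 40.3% in regions held by all 4 lists and 29.5% over all merged regions. The day-2-only class was thus above the regions held by all 4 lists, but this order turned within each file tag, as given below. The day-4-only class was nearer to the 16275 regions held by replicate 4 alone, of which 10.6% had a summit. Wilson intervals here describe counting error, and regions close to each other are not independent of one another.

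**Figure D1:**
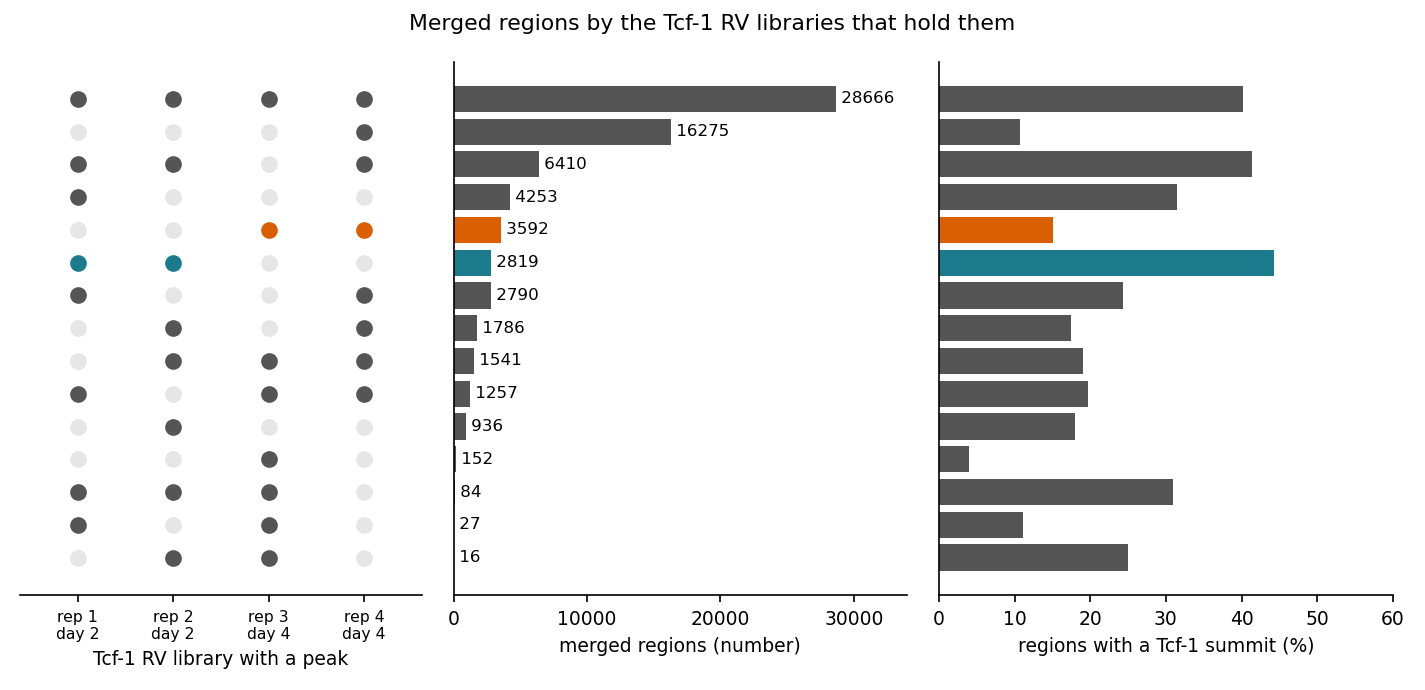
Each row is 1 of the 15 patterns in which the 4 Tcf-1 RV lists held a merged region, with filled dots for the lists that held it, the number of regions in the middle and the percentage with a Tcf-1 summit on the right. The day-2-only row (teal) reaches 44.3% and the day-4-only row (orange) 15%, while the second longest row, 16275 regions of replicate 4 alone, reaches 10.6%.

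The same contrast stood within each file tag, where the number of regions turned round. Within JJ, 5633 regions were held on day 4 only and 16662 on day 2 only. Within MK the order was the reverse, with 24020 on day 4 only and 3901 on day 2 only. Which day had more private regions therefore followed the length of the lists. The summit shares did not turn: 13.1% of the day 4 regions and 35.2% of the day 2 regions held a summit within JJ, and 13.1% and 35.8% within MK. Regions held on both days had a share of 38.4% within JJ and 38.2% within MK, above the day 2 regions of the same tag.

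The contrast in summit share held at each width. The median width was 328 bp in day-4-only regions, 308 bp in day-2-only regions and 516 bp in regions of all 4 lists. Among regions from 200 to under 250 bp, 26.8% of the day-2-only and 4.26% of the day-4-only regions held a summit. Among regions from 400 to under 600 bp the shares were 59.4% and 25.2%. The day-2-only share was above the share of equally wide regions of all 4 lists in each of the 4 width ranges examined. Leaving out regions within 1 kb of a gene end kept the contrast, with 44.6% of 2684 day-2-only and 15.6% of 3302 day-4-only regions.

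Classes formed in cells with the empty virus gave no such contrast, with region width not taken into account. When the same classes were formed from the 4 Empty RV lists (61231 merged regions), 12580 regions (20.5%) were day-4-only and 163 (0.266%) were day-2-only. Of these, 16.4% (15.7 to 17%) of the day-4-only and 18.4% (13.2 to 25.1%) of the day-2-only regions held a Tcf-1 summit. Within JJ the Empty RV shares were 17.1% on day 4 only and 18.2% on day 2 only, and within MK they were 13.6% and 14.1%. Within each tag of Empty RV the shares of the 2 days thus lay close together, while in Tcf-1 RV the day 2 share was well above that of day 4. The Empty RV day-2-only regions were narrower than the day-4-only ones, with a median of 266 bp against 293 bp. Within tags the medians were 213 bp against 257 bp in JJ and 217 bp against 248 bp in MK. Empty RV shares at equal width were not compared. The difference between arms was not tested over libraries, since each class pools 2 libraries per day.

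The second difference was in how the classes stood in cells without Tcf-1. Empty RV replicates 1 to 4 held 3.48%, 16.2%, 71.9% and 87% of the day-4-only regions. They held 11.5%, 22.1%, 15.6% and 21.7% of the day-2-only regions and 66.5%, 86%, 94% and 96.4% of the regions held by all 4 Tcf-1 RV lists. The day-4-only regions were thus rare in the day 2 Empty RV lists and common in the day 4 ones, and at most 22.1% of the day-2-only regions were in any 1 of the 4. In 1949 day-4-only regions (54.3%) both day 4 Empty RV lists and neither day 2 list held a peak, a pattern seen in 15.9% of all merged regions. The day 4 Empty RV lists are also the longer ones, and the part of their length in this was not tested. Of the day-2-only regions 1864 (66.1%) met no Empty RV peak, against 397 (11.1%) of the day-4-only regions and 839 (2.93%) of those held by all 4 lists. The day-2-only share that met any Empty RV peak, 33.9%, depended on the setting. It was 60.7% without replicate 4, 53.1% with equally long lists of the widest peaks and 60.9% with peaks of at least 300 bp. The replicate block counts a Tcf-1 RV peak only where the Empty RV library of the same number has none. Its 69.2% does not bear on this, because regions open on day 4 in both arms can enter the class there.

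**Figure D2:**
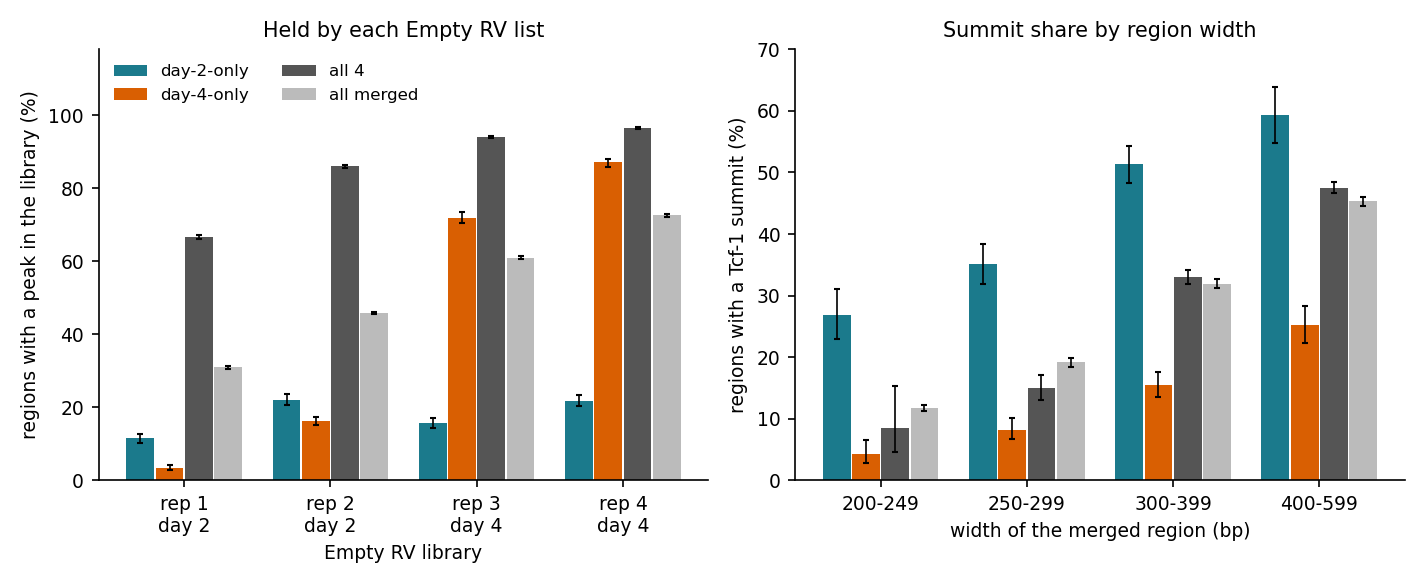
Left, the percentage of each class of Tcf-1 RV regions that had a peak in each Empty RV library. Right, the percentage of regions with a Tcf-1 summit by width of the merged region; error bars are 95% Wilson intervals. Day-4-only regions (orange) rise from 3.48% and 16.2% in the day 2 Empty RV lists to 71.9% and 87% in the day 4 ones, and day-2-only regions (teal) hold the most summits in every width range.

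Among the regions with no Empty RV peak, where opening was seen with Tcf-1 alone, the summit share was 81% (680 of 839) in those held by all 4 Tcf-1 RV lists, 55.4% (1032 of 1864) in day-2-only regions and 32% (127 of 397) in day-4-only regions. Regions that met an Empty RV peak had lower shares, 39%, 22.6% and 12.9% in the same order. On both sides the regions of all 4 lists led, followed by the day-2-only and then the day-4-only regions.

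Both classes lay mostly away from genes' ends. A gene end was within 1 kb of 8.07% of the day-4-only regions and 4.79% of the day-2-only regions, against 30.6% of the regions of all 4 lists and 17.5% of all merged regions. Regions open in DP thymocytes, the T cell precursors in which Tcf-1 is naturally active, made up 6.24% of the day-4-only and 2.41% of the day-2-only regions, against 17.2% of all merged regions. Both classes thus held fewer DP-open sites than the merged regions as a whole, and both also lay less often near gene ends. Among regions with no gene end within 1 kb, DP-open sites were 4.66% of the day-4-only and 2.24% of the day-2-only regions. Of all such merged regions they were 7.79%. Neither DP list without Tcf-1 had a peak at 143 of all 224 shared day-4-only (63.8%) and 49 of all 68 shared day-2-only regions (72.1%). The same held for 64.9% of 2288 shared regions of other patterns, 16.6% of 9572 held by all 4 lists and 26.8% of all shared regions. The DP lists without Tcf-1 were also shorter, with 11171 and 12209 peaks against 23249 and 30985 in wild type.

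Of the repressive chromatin marks of NIH3T3 without Tcf-1, H3K27me3 lay over nearly equal shares of both classes and H3K9me3 over somewhat more of the day-2-only regions. Islands of H3K27me3, the Polycomb mark, held the midpoint of 3.79% of the day-4-only and 3.80% of the day-2-only regions. Both shares were near the 3.55% of all merged regions, while the regions of all 4 lists were at 1.05%. Islands of H3K9me3, a mark of heterochromatin, held 6.54% (5.78 to 7.40%) and 8.55% (7.57 to 9.64%), against 5.93% of all merged regions. Across chromosomes 1 to 19 and X the day-4-only share ran from 4.10% to 5.59% and the day-2-only share from 3.26% to 5.15%, with the X chromosome at the upper end for day 2.

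Promoter sequence gave a further difference. RefSeq promoter windows (GRCm38.p6, from 250 bases before to 50 after the start site, 32817 distinct windows) were searched on both strands for TGANTCA, the site of the AP-1 factors Fos and Jun, and for the TCF core CTTTGA. The motifs can overlap, since CTTTGA ends in the first letters of TGANTCA. AP-1 matches were in 16 of 43 windows that met a day-2-only region (37.2%, 24.4 to 52.1%), in 5 of 144 that met a day-4-only region (3.47%, 1.49 to 7.87%), in 5.21% of 9691 that met a region of all 4 lists and in 7.81% of all windows. The windows came from 40 day-2-only and 122 day-4-only regions, and windows of 1 region share bases. Base composition differed, with a median G+C content of 47.7% in the day-2-only, 60.5% in the day-4-only and 52.7% in all windows. Among windows with a G+C content under 50%, AP-1 matches were in 9 of 23 day-2-only, 3 of 31 day-4-only and 11.4% of all 12907 windows. Among the others they were in 7 of 20, 2 of 113 and 5.48% of 19910. The TCF core was in 16.3% of the day-2-only, 11.1% of the day-4-only and 16% of all windows. Also searched were GGAATG, the site of TEAD factors, and TGTGGT, that of Runx factors. GGAATG was in 18.6% of the day-2-only, 12.5% of the day-4-only and 14.7% of all windows. TGTGGT was in 25.6%, 13.2% and 16.8% in the same order. A match describes letters and does not show that a factor binds there.

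Promoter stretches from day-2-only regions are shown first because AP-1 matches were more frequent in this class. Toporsl, Glyat and Acox2 have the largest overlap with their region among windows with a match inside it. Il1rn is the third by overlap among the remaining windows, after Pafah2 and Myl6, which have no match. The stretches were chosen after their values were seen. Capitals mark TGANTCA or CTTTGA on either strand. Toporsl (chr4:52606975-52607059, plus strand), Glyat (chr19:12633135-12633285, plus strand, an enzyme that joins glycine to acyl groups), Acox2 (chr14:8258952-8259089, minus strand, an oxidase of branched fatty and bile acid chains in peroxisomes) and Il1rn (chr2:24336709-24336859, plus strand, the interleukin-1 receptor antagonist) end upstream of the start site.
Toporsl: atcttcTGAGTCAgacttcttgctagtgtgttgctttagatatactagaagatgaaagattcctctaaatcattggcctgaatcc
Glyat: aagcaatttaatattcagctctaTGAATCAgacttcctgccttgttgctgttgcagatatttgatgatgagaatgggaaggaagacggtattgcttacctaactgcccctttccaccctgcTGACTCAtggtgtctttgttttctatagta
Acox2: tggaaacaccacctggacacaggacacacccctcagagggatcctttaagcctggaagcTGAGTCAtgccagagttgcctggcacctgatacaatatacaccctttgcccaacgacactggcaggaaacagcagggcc
Il1rn: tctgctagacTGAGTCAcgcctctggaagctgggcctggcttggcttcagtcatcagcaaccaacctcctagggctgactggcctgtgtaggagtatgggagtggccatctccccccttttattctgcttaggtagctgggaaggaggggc

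None of these 4 regions held a Tcf-1 summit. Toporsl, Glyat and Acox2 met no Empty RV peak, and Il1rn met 1, on day 4. The Glyat region lay in an H3K27me3 island.

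Beside them stand the upstream stretches of Sema4c (chr1:36557582-36557732, minus strand, a semaphorin of the cell surface) and Tmbim1 (chr1:74304361-74304511, minus strand), which follow Prtg when day-4-only regions are ordered by overlap with the window and then by width. Their regions were 971 bp and 949 bp wide, both were held by both day 4 Empty RV lists, Tmbim1 also by 1 day 2 list, and they held low-scoring summits (4.66 and 2.94). The 2 stretches hold no match to TGANTCA or CTTTGA.
Sema4c: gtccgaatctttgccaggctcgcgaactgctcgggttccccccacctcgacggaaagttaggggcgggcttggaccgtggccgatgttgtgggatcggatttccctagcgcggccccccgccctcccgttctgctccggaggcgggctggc
Tmbim1: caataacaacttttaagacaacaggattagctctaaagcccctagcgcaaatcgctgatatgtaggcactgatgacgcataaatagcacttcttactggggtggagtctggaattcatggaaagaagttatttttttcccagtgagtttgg

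The second question was asked of the Tcf-1 summits themselves: which stayed in open chromatin, which closed and which opened late. Of 40562 summits, 10739 (26.5%) were inside a peak of all 4 lists and are called open on both days. Both day 2 lists and neither day 4 list covered 1446 summits (3.56%), called closed by day 4. The reverse held for 528 summits (1.3%), called opened late. No list covered 19175 (47.3%), and the other 8674 (21.4%) followed mixed patterns. Thus summits that closed outnumbered those that opened late, but both were few beside the summits open on both days or never in a peak.

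The 2 day 4 libraries differed in how much was lost. Replicates 1 to 4 covered 43.8%, 39.5%, 29.5% and 44.4% of all summits. Among the 26168 summits inside no Empty RV peak they covered 20.7%, 14.5%, 3.97% and 16.7%, so that replicate 3 alone was low and replicate 4 was within the range of the day 2 libraries. An exact two-sided permutation test of day 4 against day 2 gave p = 0.667 (n = 2 and 2, where the smallest possible p is 0.333). Without replicate 4 the closed summits rose from 1446 to 4282, and without replicate 3 the late summits rose from 528 to 2632, which exceeds the 1493 then closed. Without replicate 2 there were 3071 closed and 865 late summits, and without replicate 1 there were 816 late ones. The direction of the difference between closed and late summits therefore rests on replicate 3, the shortest list.

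Summits differed by what the empty-virus cells had at the same place. Of the 6406 summits inside a peak of all 4 Empty RV lists, 6113 (95.4%) were open on both days, 25 had closed and 6 had opened late. Of the 26168 summits inside no Empty RV peak, 752 (2.87%) were open on both days, 1206 (4.61%) had closed and 135 (0.516%) had opened late. This order turned without replicate 3, when 2121 were open on both days, 1229 had closed and 1464 had opened late. Read the other way, 16.6% of the closed summits met an Empty RV peak, against 93% of those open on both days and 74.4% of the late ones. Without replicate 3 the late share is lower, since 1464 of the 2632 late summits then met no Empty RV peak. Without replicate 4 the closed share is higher, since 2575 of the 4282 closed summits then met no Empty RV peak. All 393 late summits with an Empty RV peak met it on day 4.

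The deposited summit score, whose scale is not stated, had its highest median in closed summits and the next in those open on both days. Its upper quartile was higher in summits open on both days (53.7) than in closed ones (51.6). Its median was 24.8 in summits open on both days, 27.6 in closed, 16.2 in late and 12.8 in those never in a peak, against 17 over all. The summits were cut into 10 equal groups by score. From the lowest to the highest group, the share open on both days went from 14.3% to 53.2% and the closed share from 1.23% to 6.39%, while the late share was 1.38% and 0.912%. Among summits with no Empty RV peak the share open on both days went from 0.240% to 15.2% and the closed share from 0.960% to 12.2%. Of these, the highest group held 285 of the 752 open on both days and 229 of the 1206 closed. Even in the highest group, 29.2% of the 1874 summits with no Empty RV peak were in no peak of the 4 Tcf-1 RV lists.

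**Figure D3:**
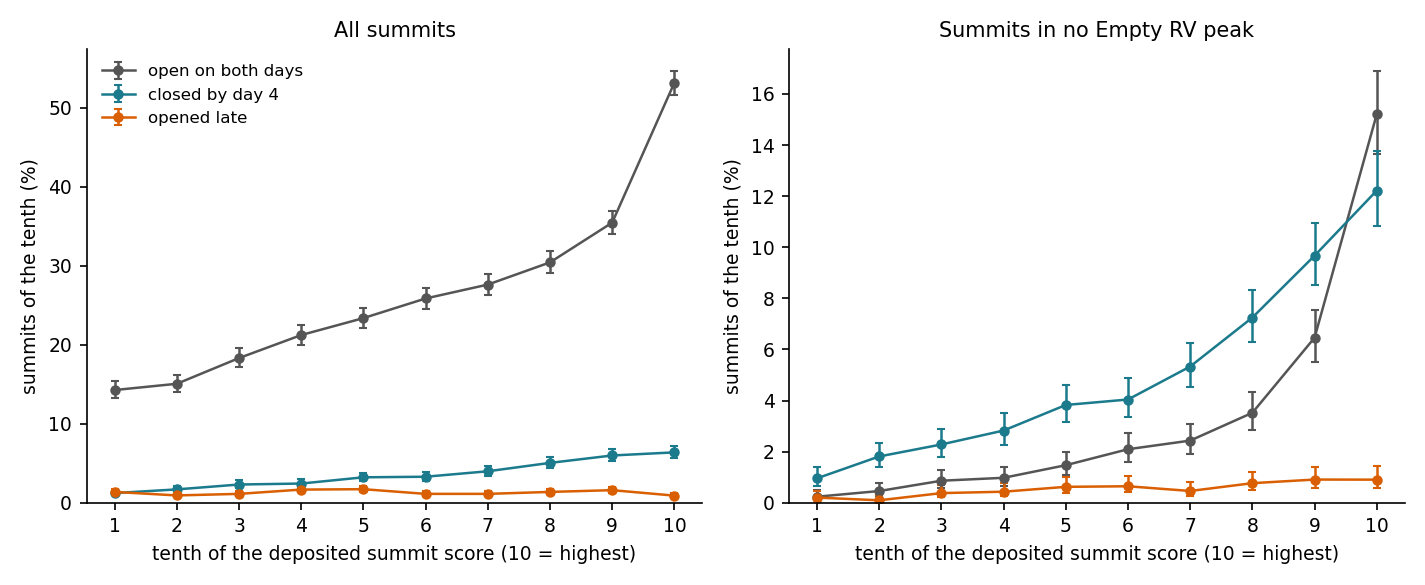
Percentage of the summits in each of 10 groups by deposited score (lowest to highest) that were open on both days, closed by day 4 or opened late, over all summits (left) and over summits inside no Empty RV peak (right); error bars are 95% Wilson intervals and the vertical scales differ. Without an Empty RV peak the closed share is above the constantly open share in groups 1 to 9 and below it in the highest, where they are 12.2% and 15.2%; over all groups that order rests on replicate 3, without which 1229 had closed and 2121 were open on both days.

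Gene ends were within 1 kb of 3.73% of the closed summits, 7.39% of the late summits and 17.4% of those open on both days, against 8.84% of all summits. Another summit lay within 5 kb of 38.1% of the closed summits (35.6 to 40.6%), 53% of the late (48.8 to 57.3%) and 46.3% of those open on both days. Closed summits were thus the most isolated of the 3. Among summits with no Empty RV peak, 50 of 1711 in H3K27me3 islands (2.92%, 2.22 to 3.83%) and 80 of 1738 in H3K9me3 islands (4.6%, 3.71 to 5.69%) had closed, against 4.74% of those in neither mark.

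Promoter windows at the summits are shown for 1 gene of each fate. Gbp3 (chr3:142559847-142559997, plus strand), an interferon-inducible GTPase, had the second highest summit score (121.3) of the windows open on both days and carries a TCF core; its summit was open in wild-type DP thymocytes and in both day 4 Empty RV lists. Pafah2 (chr4:134397221-134397350, plus strand), a phospholipid hydrolase, had the highest score (32.5) among the 10 windows with a closed summit and met no Empty RV peak. Fgf7 (chr2:126034515-126034665, plus strand), a growth factor that fibroblasts send to epithelium, was second among 17 with a late summit (15.6) and met a peak in both day 4 Empty RV lists.
Gbp3: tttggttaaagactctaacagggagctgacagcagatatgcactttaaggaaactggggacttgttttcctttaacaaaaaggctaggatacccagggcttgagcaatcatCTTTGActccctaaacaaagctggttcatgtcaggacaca
Pafah2: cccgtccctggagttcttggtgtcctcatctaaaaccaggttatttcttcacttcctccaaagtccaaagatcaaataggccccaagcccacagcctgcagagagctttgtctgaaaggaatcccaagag
Fgf7: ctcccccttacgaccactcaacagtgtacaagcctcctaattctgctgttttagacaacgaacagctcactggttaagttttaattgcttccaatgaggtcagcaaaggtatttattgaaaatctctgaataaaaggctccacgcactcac

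The core was in 228 of 1317 promoter windows with a summit open on both days (17.3%), 1 of 10 with a closed summit, 6 of 17 with a late summit and 75 of 210 with a summit never in a peak (35.7%, 29.5 to 42.4%), against 16% of all windows. Windows whose summit was never in a peak thus had the core more often than those with a summit open on both days. The same direction held for GGAATG (23.8% against 10.4%), TGANTCA (10.95% against 6.99%) and TGTGGT (12.9% against 11.7%). Over all windows, the core was in 22.3% of those with a G+C content under 50% and 11.9% of the others. The part of base composition in this was not tested. No match says only that these letters are not in the window.

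The highest-scoring summit of those open on both days lay 49569 bp outside Corin (chromosome 5, position 72250379, score 259.0). Peaks over it were 709, 705, 607 and 703 bp wide in replicates 1 to 4, and 557 to 582 bp in the 4 Empty RV lists. The summit 60676 bp from Apob (chromosome 12, position 8077515, score 249.3) met peaks of 449, 410, 336 and 487 bp and none in Empty RV. The summit inside Zfand3 (chromosome 17, position 30008667, score 234.7) likewise met 494, 450, 246 and 400 bp and none in Empty RV. At these 3 sites the narrowest Tcf-1 RV peak was in replicate 3. The 5 highest also held summits near Ets2 (541, 507, 539 and 635 bp, narrowest in replicate 2) and Mecom (863, 461, 285 and 927 bp), both of which met Empty RV peaks.

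The 3 closed summits described next are among the highest-scoring of their fate and met no Empty RV peak. Inside Slc39a11, a zinc transporter (chromosome 11, position 113348949, score 193.5), the day 2 peaks were 387 and 315 bp wide. Inside Exoc6b, a subunit of the exocyst (chromosome 6, position 85029848, score 192.7), they were 279 and 238 bp wide. The summit nearest Dcn, the matrix proteoglycan decorin (chromosome 10, position 97397458, score 176.6), lay 82042 bp outside the gene with day 2 peaks of 507 and 432 bp. Some of the highest-scoring summits were thus in day 2 peaks and in no day 4 peak.

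The 5 highest-scoring late summits were in or near Nmnat2, Trpm3, Osbpl11, Snap23 and Gna14. The one inside Nmnat2, an enzyme of NAD synthesis (chromosome 1, position 152987146, score 159.4), met peaks of 212 and 379 bp on day 4 and none in Empty RV. The one in Gna14, a G protein subunit (chromosome 19, position 16584831, score 135.2), met 385 and 569 bp on day 4, and 369 and 525 bp in the day 4 Empty RV lists. The other 4 met no Empty RV peak, unlike most late summits.

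Each library's own list repeated the fall in summit share from day 2 to day 4. Peaks with a Tcf-1 summit were 36.8% and 36.3% in the day 2 lists and 32.2% and 28% in the day 4 lists, so that the groups did not overlap. The difference of −6.43 percentage points (−4.59 within JJ, −8.27 within MK) had an exact permutation p of 0.333 (two-sided, n = 2 and 2), the smallest this design allows, and 1 after adjustment over 9 measures. Empty RV fell too, from 29.7% and 27.2% to 24.8% and 22.9% (−4.6 percentage points, exact p = 0.333, adjusted 0.467 over 7 measures). The difference between Tcf-1 RV and Empty RV of the same number was 7.11 and 9.04 percentage points on day 2 and 7.36 and 5.12 on day 4 (exact p = 0.667, n = 2 and 2).

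List length bore on the 2 arms differently. When each library kept the same number of widest peaks as the shortest list of its arm (36583 in Tcf-1 RV), the Tcf-1 RV shares were 42.2%, 39.7%, 32.2% and 37.1% in replicates 1 to 4, a day 4 minus day 2 difference of −6.28 percentage points. The Empty RV shares at 22778 peaks each were 29.7%, 32.7%, 33.8% and 34.1%, a difference of 2.73 percentage points in the opposite direction. With 22778 peaks in all 8 lists, Tcf-1 RV fell from 47.7% and 45.3% on day 2 to 38.5% and 39.99% on day 4 (−7.24, exact permutation p = 0.333, n = 2 and 2). Among these widest peaks, both day 4 Tcf-1 RV lists were above the 4 Empty RV lists and below both day 2 Tcf-1 RV lists.

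**Figure D4:**
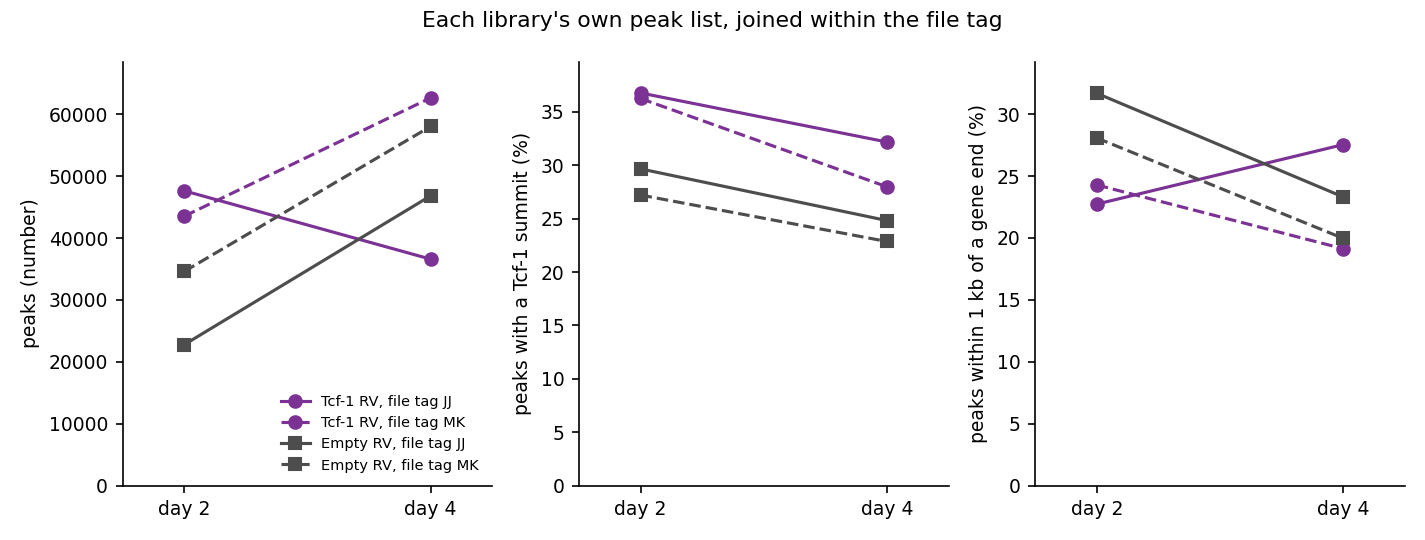
Number of peaks, percentage of peaks with a Tcf-1 summit and percentage within 1 kb of a gene end in each library's own list; lines join the libraries of 1 arm and file tag, day 2 to day 4. All 4 lines fall in the middle panel, while in the outer panels the 2 Tcf-1 RV lines cross.

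Gene-end peaks were 22.7% and 24.3% on day 2 and 27.5% and 19.1% on day 4 in Tcf-1 RV, so that the day 4 values lay on both sides of the day 2 ones (−0.172 percentage points, exact permutation p = 1, n = 2 and 2). The difference was 1.17 with equally long lists. Shares in H3K27me3 islands, in H3K9me3 islands and open in DP thymocytes likewise moved in opposite directions in JJ and MK.

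Peak width offered a measure that needs no class. Each Tcf-1 RV library had exactly 1 peak in 10736 regions with a summit and in 15675 regions without one. The median widths in replicates 1 to 4 were 439, 414, 355 and 468 bp with a summit and 374, 365, 336 and 455 bp without. From day 2 to day 4 the median change with a summit was −62 bp within JJ and 47 bp within MK, and without a summit it was −21 bp and 73 bp. The tags thus went opposite ways, and in each the lead in width of the regions with a summit shrank without being lost. In regions with exactly 1 peak in each of the 8 libraries, the median ratio of the day 4 to the day 2 width was 0.872 with a summit and 0.942 without in JJ, and 1.10 and 1.17 in MK. The Empty RV ratios were 1.3 and 1.36 in JJ and 1.17 and 1.19 in MK. The lower ratio at summits therefore appeared in both arms and stood in each of the 4 ranges of mean width; the difference between the arms was not tested.

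**Figure D5:**
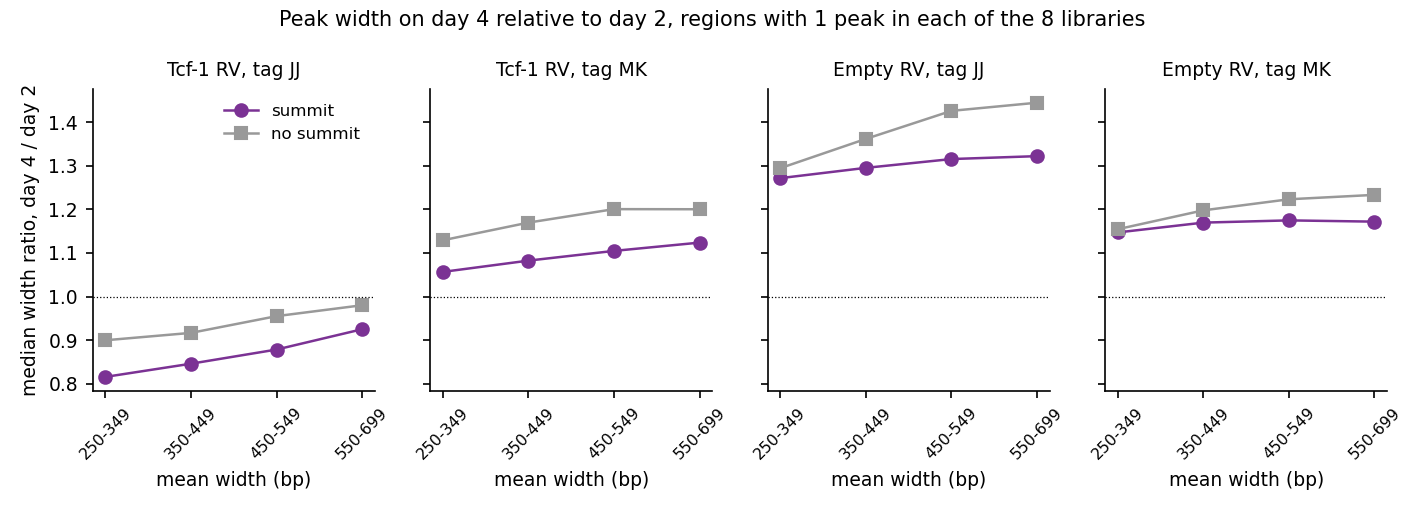
Median ratio of the day 4 to the day 2 peak width (vertical axis, no unit) by mean width of the 8 peaks, for regions with a Tcf-1 summit (purple) and without (grey); each panel is 1 arm and file tag. The purple points lie below the grey ones in every range, and the Tcf-1 RV JJ panel is the one below a ratio of 1.

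Genes were assigned by the nearest protein-coding gene within 50 kb of a region. Of 15515 genes with a region, 2381 (15.3%) had at least 1 day-4-only region and 1838 (11.8%) at least 1 day-2-only region. Genes with many regions have more chances of either, so counts are given with the gene's total. A region near a gene does not show that it acts on that gene.

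None of the 4 genes of the TCF family had a day-4-only region, and Tcf7 and Tcf7l2 had day-2-only ones. Tcf7 had 12 regions, of which 5 were in all 4 lists and 1 was day-2-only (chromosome 11, 52260540 to 52260760, inside the gene, summit score 28.2), with peaks of 218 and 221 bp on day 2. Reads from the Tcf-1 retrovirus can map to exons of Tcf7, so peaks inside this gene are uncertain. Lef1 had no day-only region among 5 and Tcf7l1 none among 14. Tcf7l2, a family member best known from the intestine, had 2 day-2-only regions among 20, the wider one inside the gene (chromosome 19, 55875363 to 55875909) with peaks of 533 and 240 bp on day 2 and no summit.

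The most day-4-only regions were at Nfia, a nuclear factor I gene of glia and fat cells, with 9 of its 40 regions. Frmd4a followed with 8 of 32, Ext1, an enzyme of heparan sulfate synthesis, with 7 of 31 and Zfand3 with 6 of 18. Mcph1, Arnt2, Kalrn, Tns3, Cacna1c and Slco3a1 had 5 each. The Ext1 region with the best summit (score 33.6) was 304 and 350 bp wide on day 4, and the day 4 Empty RV peaks there were 280 and 318 bp. At Nfia the region with a summit (score 10.4) had 236 and 374 bp in Tcf-1 RV and 341 and 347 bp in Empty RV on day 4. At 9 of these 10 genes the region shown met at least 1 day 4 Empty RV peak, the exception being Kalrn, and at none did it meet a day 2 one. Over the whole class, 88.8% of the day-4-only regions met a day 4 and 16.9% a day 2 Empty RV peak.

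The most day-2-only regions were at Pard3, a polarity scaffold (5 of 23), Arhgap42 (5 of 26), Rbms3, an RNA-binding protein (5 of 27), Magi2, a junction scaffold (5 of 36), and Nrg1, the growth factor neuregulin 1 (5 of 36). Elapor2, Nr3c2, Macrod2, Mast4 and Dlg2 had 4 each. The Nrg1 region (chromosome 8, 32147320 to 32147643, summit score 56.5) had peaks of 304 and 266 bp on day 2 and none in the other 6 libraries. The Pard3 region (chromosome 8, 127220727 to 127220983, score 19.3) had 222 and 235 bp. At 9 of these 10 genes the region shown met no Empty RV peak, the exception being Mast4, which met both day 4 ones. Over the whole class, 66.1% of the day-2-only regions met no Empty RV peak.

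Among 20 genes of the TCF family and Wnt pathway with a region, 4 had a day-4-only and 6 a day-2-only region (20% and 30%). Of all genes with a region 15.3% and 11.8% did. The 6 include Tcf7, whose peaks are uncertain because reads from the retrovirus can map to its exons. Of the list's regions 2.96% were day-4-only and 5.19% day-2-only, against 5.06% and 3.63% of all assigned regions. Tle4, a Groucho corepressor that TCF proteins bind, had 1 of each. Its day-2-only region (chromosome 19, 14500045 to 14500290, score 35.6) had peaks of 220 and 200 bp and none in Empty RV, while its day-4-only region was open in all 4 Empty RV lists. Among 17 Wnt feedback and target genes the counts were 4 and 3 (23.5% and 17.6%). Nkd2, a feedback inhibitor, had a day-2-only region with a summit (score 48.4; 329 and 232 bp) inside an H3K27me3 island. Dkk1, a secreted Wnt inhibitor, had a day-4-only region without a summit (200 and 222 bp), also in such an island and also open on day 4 in Empty RV.

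T cell genes had day-only regions in both directions, to be read against 15.3% of all genes for day 4 and 11.8% for day 2. Of 16 T cell receptor and signalling genes with a region, 2 had a day-4-only and 4 a day-2-only region (12.5% and 25%). Of 14 DP thymocyte genes 2 and 3 did (14.3% and 21.4%), and of 19 T lineage transcription factors 4 and 1 did (21.1% and 5.26%). Fyn, a kinase of T cell signalling that fibroblasts use as well, had 1 of each. Its day-2-only region (chromosome 10, 39458462 to 39458797) had a summit score of 133.1 and peaks of 336 and 252 bp, with none in Empty RV. Its day-4-only region had 502 and 640 bp in Tcf-1 RV and 495 and 535 bp in the day 4 Empty RV lists. Cd69, an early activation marker, had 2 day-4-only regions and 1 day-2-only region among 8. Ets1 had 4 day-4-only regions of 24, and the widest (236 and 514 bp) held no summit.

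Fibroblast genes had regions of both classes at shares close to those of all assigned regions, 5.49% against 5.06% for day 4 and 4.27% against 3.63% for day 2. Of 22 fibroblast identity and matrix genes, 6 had a day-4-only and 5 a day-2-only region (27.3% and 22.7%, against 15.3% and 11.8% of all genes). Fbn1, the microfibril protein fibrillin-1, had 3 and 2 of 19; its day-2-only region (chromosome 2, 125318783 to 125319007, score 56) had 200 and 225 bp and none elsewhere. Col5a1, a chain of type V collagen, had 2 day-2-only regions and no day-4-only one, and the region with a summit score of 106.7 had peaks of 291 and 331 bp on day 2. Fap, a protease of activated fibroblasts, had a single region, which was day-4-only (251 and 414 bp) and open on day 4 in Empty RV (397 and 372 bp). Of 23 mesenchymal transcription factors 4 and 6 had such regions (17.4% and 26.1%). Among them were Ebf1 with 3 day-2-only regions of 32 and Prrx2 with 2 day-4-only regions of 4.

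Genes of Tead and Yap, the growth control pathway of contact and stiffness, had the largest day-4-only share of genes among the 19 lists. This was 8 of 18 genes (44.4%) against 15.3% of all genes, with 4 of 18 (22.2%) against 11.8% for day 2. Over regions the difference was smaller, 11 of 160 (6.88%) against 5.06% of all assigned regions, and there the list was below the myeloid (15.4%), Polycomb (10.8%), housekeeping (10.6%) and DP thymocyte (7.69%) lists. Yap1 had 3 day-4-only regions of 9, and the one with a summit (score 15.6) had 315 and 421 bp in Tcf-1 RV and 251 and 324 bp in Empty RV on day 4. Ccn2, a matrix-linked growth factor and Yap target, had a day-2-only region 30711 bp away (chromosome 10, 24564497 to 24564964) with a summit score of 123.5 and peaks of 468 and 319 bp. Ankrd1 had one of 650 and 388 bp with a score of 43.6. Neither met an Empty RV peak.

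In the other lists the counts below stand beside 15.3% of all genes for day 4 and 11.8% for day 2. Of 22 TGF-beta and BMP genes, 5 had a day-4-only and 6 a day-2-only region (22.7% and 27.3%). Of 21 cell cycle genes 3 and 1 did; the latter was Rb1, the retinoblastoma gene, whose region (score 49.4) had 202 and 237 bp on day 2. Of 25 Polycomb and heterochromatin regulators 6 and 3 did (24% and 12%), with 3 day-4-only regions at Jarid2, a Polycomb cofactor. Of 13 AP-1 genes 2 and 0 did, of 16 interferon genes 1 and 2, of 20 homeobox and developmental genes 2 and 0, and of 20 myogenic, adipogenic and osteogenic regulators 5 and 1 (25% and 5%). The lists of other lineages gave 1 and 2 of 16 epithelial genes, 1 and 1 of 5 B lineage genes and 2 and 0 of 10 myeloid genes, and 14 housekeeping genes gave 3 and 2 (21.4% and 14.3%). Lists of this size move by several percentage points with 1 gene.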

How the data were processed

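Peak lists of 4 Tcf-1 RV, 4 Empty RV, 2 wild-type and 2 Tcf-1 KO DP ATAC-seq libraries were used. The deposited ATAC-seq files hold genomic start and end positions only. The deposited Tcf-1 file holds 40562 pooled summits on the main chromosomes with a score of unstated scale. Histone islands of 2 libraries per mark were used by position and had to overlap in both. Bowtie2 2.2.9, MACS2, Picard and Trim Galore are among the tools in the submitters' processing notes, which list mm10 and GRCm38. The notes do not tie a tool or its settings to a file. Peaks on unplaced sequences (189 in both arms) were left out.

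Overlaps were computed in Python 3.11.15 with numpy 2.4.6 and scipy 1.17.1, and tested on simulated lists. A region was open in DP thymocytes if both wild-type lists met it. Genes came from RefSeq (GRCm38.p6), with 21887 protein-coding genes and no exons. Shares have 95% Wilson intervals. Libraries were compared by exact two-sided permutation tests with Benjamini-Hochberg adjustment. Members, lists and tests were chosen with earlier results of these data known. A motif search in regions was not run, as no genome was used here; promoter windows were searched instead, a choice made after the files were seen, as were the printed stretches. Named genes were the TCF family, the 10 genes with most regions of a class, up to 4 per list and 5 summits per fate; 1 result under this rule is not reported here. Alternatives were a 50% overlap, a 1 kb distance, wider peaks, equally long lists, wider reach, higher scores, each replicate left out and a replicate block.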

Additional observations from a re-analysis of the deposited data

Results flagged for a closer look

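In Empty RV replicate 1, a day 2 library, peaks had a median width of 290 bp, while the other 3 Empty RV libraries were at 317 or 318 bp; its gap to them was most of the group's range. Chance alone sets 1 sample apart in this way in some groups. The median peak width fell from day 2 to day 4 in both file tags of Tcf-1 RV, by a mean of 9.5 bp (day 4 minus day 2 of −9.5 bp, from −17 bp in JJ and −2 bp in MK), and rose in both file tags of Empty RV, by 14 bp. This difference between the arms was not tested, and the Empty RV rise rests on replicate 1: it was 27 bp in the tag that holds it and 1 bp in the other.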

How the results depend on the processing

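The day-2-only regions held the higher summit share in each setting tried, while the counts moved with list length and single libraries. In percent for day-4-only and day-2-only regions, the summit share was 16.6 and 46.2 where peaks had to cover 50% of the region, 26.2 and 61.3 with peaks of at least 300 bp (1793 and 1784 regions), and 19.9 and 51.5 with equally long lists. The share open in any Empty RV library was 90.3 and 36.9, 96.2 and 60.9, and 91.9 and 53.1 in the same settings. In the replicate block a library counted only without a peak in the Empty RV library of the same number. This left 419 day-4-only regions (summit share 32.5%, open in any Empty RV library 5.25%) and 6051 day-2-only regions (69.2% open in any). It left 752 summits open on both days, 3008 closed and 149 late, of which 752, 1206 and 135 met no Empty RV peak. A site open on day 4 in both arms counts as absent on day 4 there. The block's day-2-only regions and closed summits therefore do not measure closing. The labels do not say that shared numbers mark shared cultures. The 50% of summits with the higher score had 7007 open on both days and 250 late.

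Leaving out 1 replicate at a time gave 3936 to 19901 day-4-only regions (the highest without replicate 3) and 2904 to 9372 day-2-only regions (the highest without replicate 4). Their summit shares were 11.4 to 16.2% and 36 to 43.9%, and their shares open in any Empty RV library 64.1 to 90.6% and 25.2 to 60.7%. Summits open on both days numbered 10786 to 13575, closed 1493 to 4282 and late 546 to 2632. With no Empty RV peak they numbered 775 to 2121, 1229 to 2721 and 145 to 1464. The day 4 minus day 2 summit share of peaks was −8.53 to −4.34 percentage points in Tcf-1 RV and −5.82 to −3.37 in Empty RV. The gene-end share was −4.37 to 4.03 in Tcf-1 RV (0.603 without replicate 2, 4.03 without replicate 4) and −10.04 to −6.43 in Empty RV. Equally long lists turned the gene-end difference to 1.17 in Tcf-1 RV (3.29 with all 8 lists equal) and 3.51 in Empty RV, and the Empty RV summit share difference to 2.73; the cause was not tested. Of 99 pairs of a named gene and a class, 47 kept a region with peaks of at least 300 bp and 71 with equally long lists. Depth is unknown and sets no limit that can be given.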
